A study of Mus musculus with 10 samples.

Results

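DNA methylation was compared between spermatozoa of untreated F3-generation mice that descended from decitabine treated males and of those that descended from vehicle-control males, at every autosomal CpG site with at least 10 reads in each F3 animal. All 5 F3 animals among the 10 mice of the series entered the comparison, F3D1, F3D7 and F3D31 of the decitabine lineage and F3C9 and F3C30 of the vehicle-control lineage. At 1035951 CpG sites the coverage was sufficient in all 5 animals, out of 1751229 autosomal CpG sites with a read in any of them. The founders were C57Bl/6 males that received, over 7 weeks and starting when they were 7 weeks old, 3 intraperitoneal injections a week of 0.1 µg/g decitabine in 7.5% DMSO in phosphate buffered saline, or with that vehicle alone. In each arm 10 founders were mated with 4 females each, and neither the F1- and F2-generations nor the F3 animals themselves received any injection. F3C9 descended from the founder C8, F3C30 from C14, F3D7 from D11, and F3D1 and F3D31 both from D10, so that lineage and founder family cannot be told apart, as the study describes the families. The labels do not say how the animals are related. P-values of limma and of the permutation tests measure the spread between these animals. They count F3D1 and F3D31, which share a founder, as independent animals. Spermatozoa came from whole epididymides, and the purity of the F3 samples was not measured by the study.

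Decitabine (5-aza-2′-deoxycytidine) is a cytidine analogue that is built into DNA during replication and traps DNA methyltransferases there, so that newly made DNA is left with less methylation. In the mammalian germ line, methylation is erased in primordial germ cells and written anew before birth in the male. Mature spermatozoa carry dense methylation over most of the genome, while CpG islands and most promoters are free of it. A difference that persisted in F3 spermatozoa would have passed through several such cycles in animals that never met the drug.

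Most F3 differences lay at CpG sites outside promoters whose methylation level was already intermediate and variable in the P-generation. At most of them F3C9 was the animal farthest from the others, a measure that favours either vehicle-control lineage animal. With pooled reads, 2388 CpG sites were differentially methylated, which is 0.231% of those tested, with 1626 higher (0.157%) and 762 lower (0.0736%) in the decitabine lineage. Here a site was called at a pooled difference of at least 25 percentage points and a Benjamini-Hochberg q-value under 0.01 of a likelihood ratio test that treats reads, not animals, as independent. Tests that use the spread between animals called none: limma found 0 of 1035951 CpG sites, 0 of 89466 regions and 0 of 12382 promoters (0% each) at an adjusted p under 0.05. The unadjusted p of limma was under 0.05 at 52778 CpG sites (5.09%), 4739 regions (5.30%) and 511 promoters (4.13%). An F test with a dispersion term for each CpG site also called 0, with 12540 CpG sites (1.21%) at an unadjusted p under 0.05. With 5 animals this test can hardly reach a q under 0.01 over 1035951 CpG sites. Its 0 therefore cannot tell whether the lineages differ.

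The sequences around the called CpG sites of the regions with the largest differences are given first, to show how short they were and how close their called CpG sites lay. A region was a run of tested CpG sites with gaps of up to 100 bp and at least 3 CpG sites, and the ones shown held at least 3 called CpG sites in a common direction. The called CG dinucleotides are in capitals, on the plus strand of the mm10 (GRCm38) reference.
Nek11 intron, higher in the decitabine lineage, chr9:105374612-105374634: CGattagagaCGttacccagcCG
Pcsk2 intron, higher, chr2:143631457-143631501: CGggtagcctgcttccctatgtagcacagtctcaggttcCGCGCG
Intergenic near Prok1, higher, chr3:107241810-107241856: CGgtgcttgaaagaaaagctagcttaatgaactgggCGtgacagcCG
Intergenic near Rsbn1l, lower, chr5:20967424-20967475: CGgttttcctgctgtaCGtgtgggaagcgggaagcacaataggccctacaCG
Intergenic near Arl14ep, lower, chr2:106920635-106920681: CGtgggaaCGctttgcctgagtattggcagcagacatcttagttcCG
Intergenic near St6gal2, lower, chr17:55208784-55208830: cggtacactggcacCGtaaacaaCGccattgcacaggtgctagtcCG

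The summed coverage of CpG cytosines was between 61913075 reads in F3D7 and 115158278 reads in F3D1, with 80811307 in F3C9. Over the tested CpG sites, the lowest coverage of the 5 animals had a median of 35 reads, and 22 reads at the called CpG sites. Correlations between animals over all tested CpG sites were 0.976 to 0.979 for the 4 pairs with F3C9 and 0.984 to 0.987 for the other 6 pairs. At 110020 CpG sites with a mean level of 20 to 80% in the P-generation, the median gap between F3C9 and another F3 animal was 10.6 to 11.7 percentage points, and 8.17 to 8.84 percentage points between the other animals. F3C9 also differed from itself more than the others did: at 19253 CpG sites of intermediate level with at least 10 reads on either strand, its strands were a median of 18.2 percentage points apart, against 10.3 to 13.4 percentage points in F3C30, F3D1, F3D31 and F3D7. The squared strand gap was 3.52 times the variance that its read numbers allow in F3C9 and 1.45 to 1.97 times in the other F3 animals, where independent reads give a median of 0.455. The P-generation was measured at 15572 CpG sites with at least 10 reads on either strand in its animals too. There it was 6.54 times in C8, the ancestor of F3C9, and 1.29 to 2.26 times in the other P-generation animals. The part of this excess in the results was not tested.

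The sperm label was checked at promoters of germ line genes, which are low in methylation in sperm and methylated in somatic cells. Over the 16 of 17 such promoters that were measured, including those of Dazl, Ddx4 and the synaptonemal complex genes Sycp1, Sycp2 and Sycp3, the mean level was 14.9% in F3C30, 24.9% in F3C9, 21.3% in F3D1, 16.9% in F3D31 and 13.8% in F3D7. F3C9 and F3D1 had the highest means, and the lineages overlapped (difference -2.62 percentage points, exact permutation test, two-sided, p = 0.6). Over 12 of 17 maternally methylated imprinted promoters, which sperm leave free of methylation, the means lay between 7.74% in F3C30 and 9.65% in F3D1. At the paternally methylated loci, 2 CpG sites upstream of H19 were at 84.6% in F3C9 and at 94.9 to 96.9% in the others. The 8 CpG sites upstream of Meg3 were at 82.5% in F3C9 and at 87.1 to 96.1% in the others, and no CpG site upstream of Rasgrf1 was tested. The few CpG sites tested at paternally methylated loci were thus high, and the 12 measured maternally methylated promoters low on the mean, in every F3 animal, the order that sperm have. Mest, Snrpn and Kcnq1ot1, chosen by the study for pyrosequencing, were not among the 12. The germ line promoters were less low, at means of 13.8 to 24.9%. F3C9 had the highest mean there and the lowest levels upstream of H19 and Meg3. Single promoters reached 18.9% among the maternally methylated ones (in F3D1) and 42.3% among those of germ line genes (in F3C9). Methylation at germ line promoters varied among animals. The part of that variation in the differences was not tested.

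The mean methylation level did not separate the lineages. Over all tested CpG sites it was 29.9% in F3C30, 30.1% in F3C9, 30.4% in F3D1, 30.03% in F3D31 and 30.3% in F3D7. F3D31 lay between the vehicle-control lineage animals, so the groups overlapped. The difference was 0.211 percentage points (30.2% ± 0.17, SD, n = 3, against 30.01% ± 0.15, SD, n = 2; exact permutation test, two-sided, p = 0.3), where 2 against 3 animals cannot give a p below 0.1. Promoters, within 1000 bp of the start of a protein-coding gene, were nearly free of methylation, at 2.05% ± 0.16 (SD, n = 3) and 2.004% ± 0.10 (SD, n = 2), and differed by 0.048 percentage points (p = 0.9, exact permutation test). Exons outside promoters differed by 0.119 percentage points (p = 0.9, exact permutation test) and intergenic sequence by 0.272 percentage points (exact permutation test, p = 0.7). In introns the level was 57.0% ± 0.26 (SD, n = 3) in the decitabine lineage and 56.4% ± 0.46 (SD, n = 2) in the vehicle-control lineage, 0.554 percentage points apart (p = 0.3, exact permutation test). With reads of all CpG sites summed per animal, which gives deep CpG sites more weight, the difference over all CpG sites was -0.541 percentage points, the opposite direction, and those of the 4 annotation classes were also below 0.

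Leaving out F3C9 removed most of the calls. At 1757 of the 2388 called CpG sites (73.6%), F3C9 was the animal farthest from the median of the other animals, against 272 for F3C30, 156 for F3D1, 110 for F3D7 and 93 for F3D31. At sites called for a lineage difference, a vehicle-control lineage animal is set mostly against decitabine lineage animals, so the measure favours F3C9 and F3C30. Only their counts can therefore be set beside each other. The share over all tested CpG sites was not computed. Without F3C9, 696 CpG sites were called (0.0672% of those tested), 533 higher and 163 lower, of which 142 were among the 2388 (5.95% of the calls with all animals and 20.4% of those without F3C9). Without F3C30, which left F3C9 as the only vehicle-control animal, 13530 CpG sites were called, 7877 higher and 5653 lower. Leaving out F3D1, F3D31 or F3D7 gave 2333, 2784 and 2398 calls, and without F3D1 or F3D31 each founder of the decitabine lineage had a single descendant. At the 2388 called CpG sites the median size of the difference was 29.4 percentage points with all animals, 19.2 percentage points without F3C9 and 38.8 percentage points without F3C30. The direction was the same without F3C9 at 2245 of them, with a difference under 10 percentage points at 531 (22.2%). The F3C9 and F3C30 values, which stand for the same group, were a median of 21.2 percentage points apart at the called CpG sites and 0.694 percentage points apart at all tested CpG sites.

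**Figure D1:**
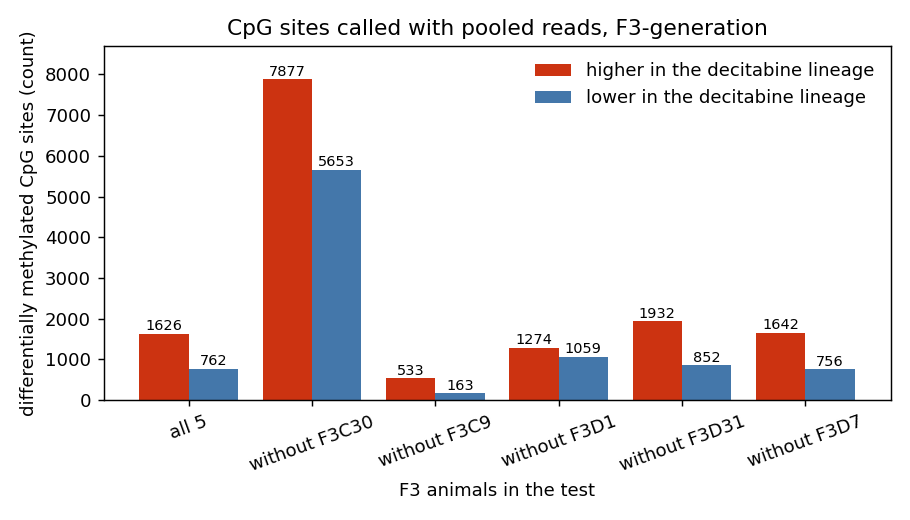
Differentially methylated CpG sites (count, vertical axis) with all 5 F3 animals and after omission of single animals, drawn as red bars for CpG sites higher and blue bars for CpG sites lower in the decitabine lineage. The count rose from 1626 higher and 762 lower to 7877 and 5653 without F3C30, and fell to 533 and 163 without F3C9.

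The plot of levels at the called CpG sites shows the same by animal. At the 1626 CpG sites that were higher in the decitabine lineage, the median level was 83.0% in F3D1, 80% in F3D31 and 83.0% in F3D7, and 62.5% in F3C30 and 40.0% in F3C9. At the 762 that were lower, the median was 24.2% in F3D1, 24.1% in F3D31 and 21.0% in F3D7, and 42.6% in F3C30 and 65.6% in F3C9. These medians follow from how the CpG sites were chosen and carry no test. In the P-generation, which the choice did not use, 1861 of the called CpG sites had at least 10 reads in all 5 animals. The decitabine treated animals differed from the vehicle-control animals in the same direction as in the F3-generation at 940 of them and in the opposite direction at 913, with a median difference of 0.177 percentage points in the F3 direction. Without C8, whose strands disagreed most, 674 had the same and 1178 the opposite direction. C14 was then the only vehicle-control animal, so these directions turn on its values. The share over all CpG sites was not computed.

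**Figure D2:**
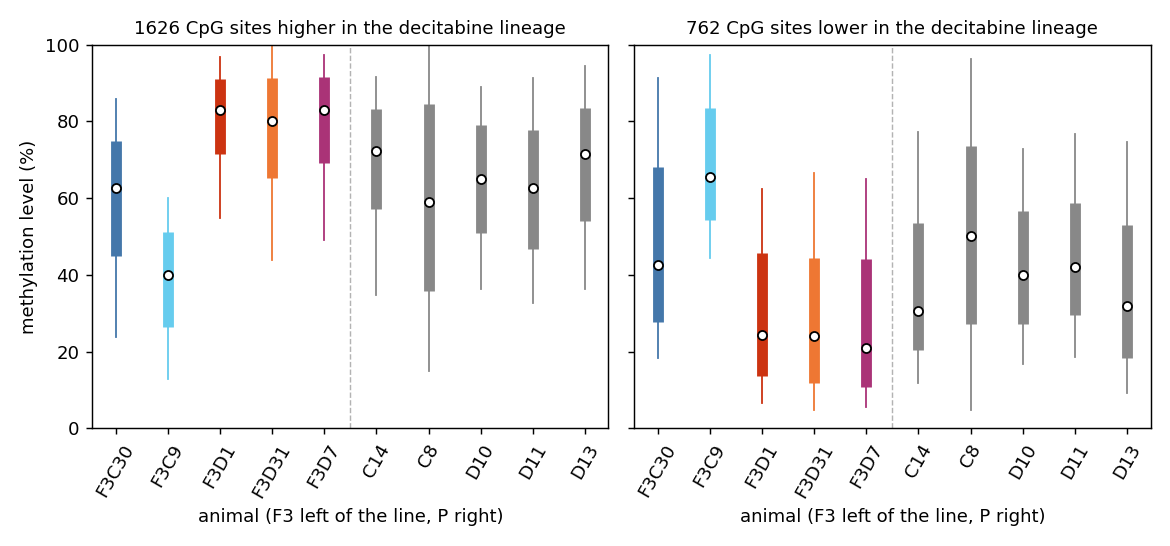
Methylation level (%) of the F3 animals (coloured) and the P-generation animals (grey) at the CpG sites called in the F3-generation, left those higher and right those lower in the decitabine lineage, with circles for the median, thick bars for the quartiles and thin lines for the 10th to 90th percentile. F3C9 lies farthest from the decitabine lineage in either panel (medians of 40.0% and 65.6%), and F3C30 lies between; P-generation values cover the 1283 and 578 of these CpG sites with 10 reads in all P-generation animals.

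The methylation level and its variability in the P-generation animals, which did not enter the F3 test, marked where the F3 calls fell. Among CpG sites with a mean level of 20 to 80% in the P-generation, 1516 of 110020 were called (1.38%), 1015 higher and 501 lower. At a mean level under 5%, 8 of 532613 were called (0.0015%), and at 95% or more 42 of 96980 (0.0433%). Where the P-generation animals spanned at least 50 percentage points, 1.67% of the CpG sites were called, and where they spanned under 10 percentage points 0.00674% were. Without F3C9 the shares were 0.377% at 20 to 80%, 0.00131% under 5% and 0.0351% at 95% or more, so the order was retained. A CpG site at an intermediate level can move by 25 percentage points in either direction, and one near 0 or 100% in only one, so that these shares are not a measure of stability.

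**Figure D3:**
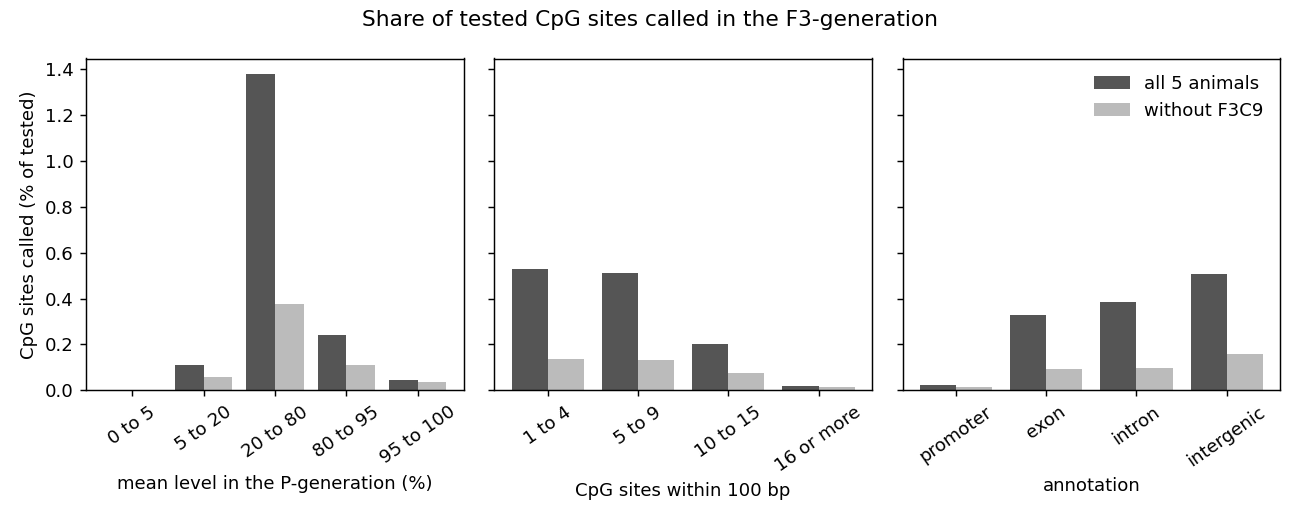
Share of tested CpG sites called (%, vertical axis, bars from 0) by mean level in the P-generation, by the number of CpG sites within 100 bp and by annotation, dark bars with all 5 animals and light bars without F3C9. The highest bar is 1.38% at levels of 20 to 80%, and promoters and CpG-dense sequence have the lowest bars of their panels (0.0238% and 0.0169%).

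Called CpG sites were sparse in promoters and in CpG-dense sequence. Of 474584 tested CpG sites in promoters, 113 were called (0.0238%), 45 higher and 68 lower. The share was 0.327% in exons (507 CpG sites), 0.383% in introns (899 CpG sites) and 0.506% in intergenic sequence (869 CpG sites). In introns 716 of the 899 calls were higher in the decitabine lineage, and in exons 293 were higher and 214 lower. Without F3C9 the shares were 0.0122%, 0.0922%, 0.0955% and 0.158% in this order. Within the CpG sites at 20 to 80% in the P-generation, the 4 annotation classes lay closer together, with 0.918% in promoters, 1.36% in exons, 1.43% in introns and 1.40% in intergenic sequence. This order did not hold without F3C9, where F3C30 was the only vehicle-control lineage animal and promoters had the highest share of the 4. CpG sites with 16 or more CpG sites within 100 bp were called at 0.0169% (83 of 491982), and those with 1 to 4 at 0.528% (794 of 150513). Soft-masked repeats were called at 0.322% and other sequence at 0.222%.

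The number of calls also moved with depth. When every library was thinned to the coverage of F3D7, 1387 CpG sites were called, 925 higher and 462 lower. Drawing exactly 10 reads per CpG site in each animal left 0 at the same thresholds. So few reads give the test little power after adjustment over 1035951 CpG sites. The called differences had a median size of 29.4 and a largest size of 65.6 percentage points. This 0 therefore cannot tell whether the called CpG sites depend on depth. CpG sites whose lowest coverage was 10 to 19 reads were called at 0.458%, those at 20 to 49 reads at 0.257% and those at 50 or more at 0.0254%, where the deeper CpG sites were also less methylated, at a mean level of 44.1% and 13.1% in F3C30 for the lowest and highest class.

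Neighbouring called CpG sites moved together, and the strands of a CpG site often did not. Of the 2388 called CpG sites, 585 (24.5%) had another within 100 bp, and 331 of 337 adjacent pairs had the same direction. Such neighbours can lie in the same reads. The strands are amplified as separate fragments, and 285101 CpG sites had at least 10 reads on either strand in all 5 animals. A test of the plus strand alone called 417 of these, with a median size of 29.1 percentage points. On the minus strand, which that test did not use, 236 of the 417 (56.6%) had the same direction, the median difference in that direction was 2.14 percentage points, and 14 reached 25 percentage points.

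The 12 regions with the largest differences were chosen among 64 that held at least 3 called CpG sites, all 64 of them in a common direction. Of these, 38 had lineages that did not overlap at the level of the region, beside 19.3% of all 89466 regions. That 19.3% is no sign of a lineage difference. The animals allow only 10 splits, so without a lineage effect either direction of separation would have a chance of 0.1. The calls that chose the 64 came from the same animals, so their share is no test of the lineages. The 12 regions are therefore described by their values. Each had a limma adjusted p of 0.921 or 0.927 over all regions. Without F3C9 their differences lay between 9.97 and 37.1 percentage points in size, and F3C9 was the farthest animal in 28 of the 38. That measure favours the vehicle-control lineage animals here too.

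Nek11 encodes a kinase of the DNA damage response. The region in its intron (3 CpG sites) was at 48.0% in F3C30 and 40.2% in F3C9, and at 78.6% in F3D1, 93.7% in F3D31 and 77.4% in F3D7. The vehicle-control lineage lay below all decitabine lineage animals, by 39.1 percentage points, and by 35.2 percentage points without F3C9. In the P-generation the same region was at 64.5% in C14, 23.5% in C8, 80.6% in D10, 40.3% in D11 and 62.2% in D13, so that the groups overlapped there.

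Pcsk2 encodes a proprotein convertase that cleaves peptide hormone precursors. The region in its intron (4 CpG sites) was at 50% in F3C30 and 44.4% in F3C9, against 79.4% in F3D1, 88.6% in F3D31 and 87.8% in F3D7. The difference was 38.1 percentage points, and 35.3 percentage points without F3C9. The P-generation animals were at 84.5% in C14, 85.0% in C8, 76.7% in D10, 95.7% in D11 and 98.8% in D13, near the level of the decitabine lineage of F3.

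The intergenic region 2126 bp from the start of Prok1, which encodes a secreted prokineticin, was at 47.4% in F3C30 and 41.1% in F3C9 and at 82.9%, 70.6% and 82.0% in F3D1, F3D31 and F3D7. In an exon of Wdr95 (4 CpG sites), F3C30 was at 55.8% and F3C9 at 25.8%, and the decitabine lineage was at 70.2%, 67.04% and 86.9%. The difference there fell from 33.9 to 18.9 percentage points without F3C9. Near Mpzl1 the decitabine lineage itself spread widely, with 63.0% in F3D1, 25% in F3D31 and 35.9% in F3D7, over 13.4% in F3C30 and 6.82% in F3C9. The region nearest to Dhx35 was at 59.0% and 45.6% in F3C30 and F3C9 and at 73.8 to 93.1% in the decitabine lineage.

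Among the regions lower in the decitabine lineage, the one 11051 bp from the start of Rsbn1l had the largest difference, -31.4 percentage points. It was at 38.6% in F3C30 and 43.9% in F3C9, and at 24.0% in F3D1, 0% in F3D31 and 5.63% in F3D7, where 0 methylated of 68 reads in F3D31 allows a level of up to 4.41%. The region near St6gal2 was at 82.9% and 86.4% in the vehicle-control lineage and at 47.5%, 65.6% and 50.6% in F3D1, F3D31 and F3D7. In a coding exon of Kctd16, an auxiliary subunit of GABA-B receptors, F3C30 was at 48.4% and F3C9 at 28.8%, against 10.0 to 13.3% in the decitabine lineage. Leaving out F3C9 enlarged this difference from -27.3 to -37.1 percentage points. In the region nearest to Cnot2, F3C9 alone stood apart, at 61.6% against 27.0% in F3C30 and 9.29 to 23.3% in the decitabine lineage. The pseudogene Ybx1-ps2 had 30% and 51.9% in the vehicle-control lineage and 12.0 to 12.5% in the decitabine lineage. Near Arl14ep, F3C30 at 55.2% was closer to F3D1 at 46.9% than to F3C9 at 79.8%.

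**Figure D4:**
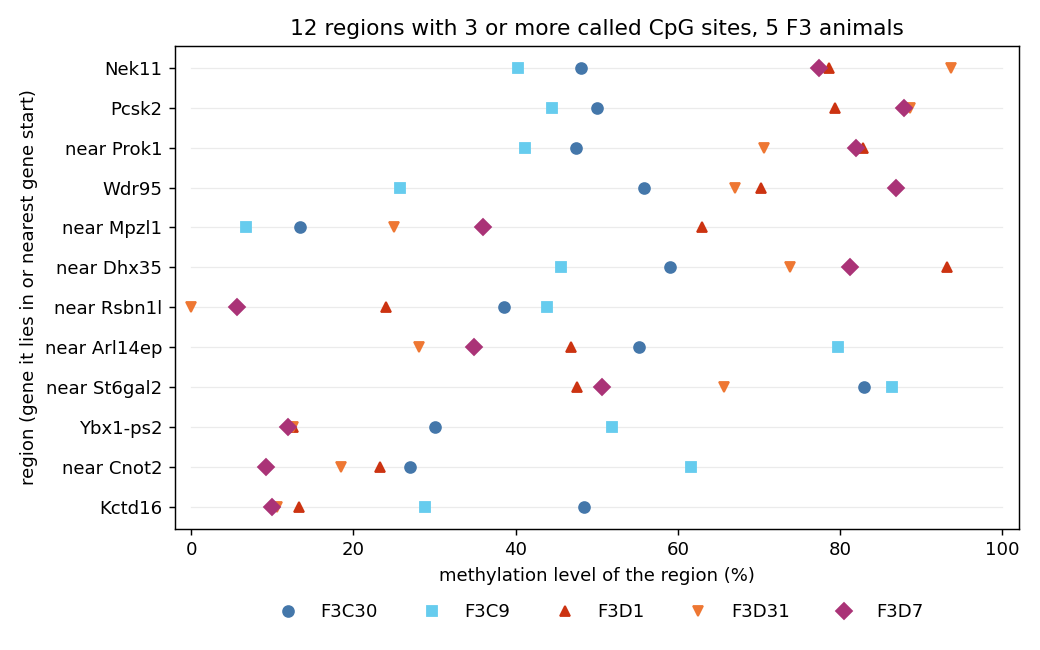
Methylation level (%, horizontal axis) of the 12 regions in each of the 5 F3 animals, blue symbols for the vehicle-control lineage and red, orange and purple symbols for the decitabine lineage. In the Pcsk2 region the vehicle-control lineage is at 44.4% and 50% and the decitabine lineage at 79.4 to 88.6%, and in the region near Cnot2 F3C9 lies alone at 61.6%.

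The regions were tested once more for a lineage difference that differed between the generations. This test treated founders and their F3 descendants as unrelated animals. Of 84006 regions covered in all 10 animals, limma called 0 for the interaction of generation and lineage, with 5033 (5.99%) at an unadjusted p under 0.05. For the Pcsk2 region the adjusted p of the interaction was 0.905 (limma). Without F3C9 or without C8, alternatives added after the data were seen, the interaction also called 0 regions.

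Single CpG sites gave larger differences with fewer reads. Those named had at least 20 reads in each animal and lineages that did not overlap. In a coding exon of Wdr95 at chr5:149611577, F3C30 was at 28.6% (95% Wilson interval 16.3 to 45.1%, 35 reads) and F3C9 at 21.1% (11.1 to 36.3%, 38 reads). F3D1, F3D31 and F3D7 were at 69.4%, 65.6% and 88.9%, a pooled difference of 48.5 percentage points (q = 9.94e-09). It was called under every omission of an animal. These intervals cover counting error only.

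The other CpG sites higher in the decitabine lineage were less even. In an intron of Kcnmb2, a regulatory subunit of calcium-activated potassium channels, F3D31 at 38.7% lay close to F3C30 at 35% and far from F3D1 at 90.5%. A CpG site in a coding exon of Nos2, the inducible nitric oxide synthase, was at 66.7% in F3C30, within a few points of F3D31 at 68.2% and F3D1 at 72.4%, and at 17.2% in F3C9. Its difference was 45.4 percentage points, and 9.39 percentage points without F3C9. A coding exon of Cdk8, a kinase of the Mediator complex, showed the same order, with 66.7% in F3C30, 13.9% in F3C9 and 68.4 to 75.6% in the decitabine lineage. In an intron of R3hcc1l, F3C30 at 42.9% and F3C9 at 23.5% were below 72.2 to 86.8%. Without F3C9 the CpG sites of Kcnmb2 and R3hcc1l were not called, at differences of 42.0 and 35.1 percentage points, from 46.8 and 44.7 percentage points with all animals.

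The 5 CpG sites lower in the decitabine lineage were not called without F3C9, with differences of -7.34 to -28.8 percentage points. They lay in coding exons of St6galnac6 and Helz, in an intron of Pcdh15, a cadherin of hair cells, in a coding exon of Wnt9b, a secreted Wnt ligand, and in intergenic sequence nearest to Zfp507. In Helz, a putative RNA helicase, F3C9 was at 91.2%, F3C30 at 34.6% and the decitabine lineage at 25.6 to 28.6%, and the pooled difference of -39.4 percentage points became -7.34 without F3C9. In Pcdh15, F3C9 was at 78.0%, F3C30 at 43.4% and the decitabine lineage at 16.9 to 21.0%, with -24.1 percentage points without F3C9.

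Of the 2388 called CpG sites, 28 were also called, in the same direction, when any animal was left out, 23 higher and 5 lower in the decitabine lineage. This list was made after the values were seen, and its limma adjusted p-values were 0.65 to 0.858. Prdm16, a transcription factor of brown fat and blood stem cells, held a pair of them in an intron, at chr4:154527783 and chr4:154527800. The former was at 59.5% in F3C30 and 53.1% in F3C9, and at 98.2% in F3D1, 95.8% in F3D31 and 89.2% in F3D7. In a coding exon of Dusp5, a phosphatase of ERK kinases, the vehicle-control lineage was at 97.8% and 97.6% and the decitabine lineage at 70.4%, 60.9% and 75%. In Kctd11, an adaptor that restrains Hedgehog signalling, the levels were 6.25% and 10.1% against 37.0%, 28.8% and 42.6%.

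Neighbouring CpG sites followed some of the 28 and not others. Of the 27 with another tested CpG site within 100 bp, 22 had neighbours whose mean difference had the same direction, and at 12 that mean was at least 10 percentage points. A CpG site in Ubl5, which encodes a ubiquitin-like protein, and 70 bp from the start of the neighbouring gene Fbxl12, was at 42.9% in F3C30 and 40.0% in F3C9, with 14 and 10 reads, and at 0% in the decitabine lineage, where 10 to 33 reads allow levels of up to 9.09 to 30%, while the mean difference of its 8 neighbours was 0.25 percentage points. The CpG site nearest to Rnase12, at 40.0% and 36% against 0% in the decitabine lineage, had 4 neighbours with a mean difference of -0.473 percentage points. Only 2 of the 28 had at least 5 reads on either strand in all animals. The one in a coding exon of Nckap5l differed by 38.5 percentage points on the plus and 17.98 percentage points on the minus strand. The other, in an intron of Nfic, a transcription factor of the nuclear factor I family, differed by 43.7 percentage points on the plus and 37.0 percentage points on the minus strand.

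Genes held few called CpG sites each. Of 16773 protein-coding genes with a tested CpG site, 1100 had a called one, 236 had 2 or more and 73 had 3 or more. Among the 1100 genes, 63 had a CpG site called with and without F3C9. The largest number, 17 of 7667 tested CpG sites, belonged to Gm20388, an annotated locus that spans many genes on chromosome 8, and its share of 0.222% was close to that of all CpG sites.

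The next genes were Tmem267 and 3110070M22Rik on chromosome 13, which overlap at their starts and shared the same 7 called CpG sites, all higher in the decitabine lineage. At these 7, the mean level was 12.9% in F3C30 and 34.0% in F3C9, and 60.4% in F3D1, 52.3% in F3D31 and 55.8% in F3D7. The lineages did not overlap, although the vehicle-control lineage animals were far apart. Over the 81 tested CpG sites within 1000 bp of the start of Tmem267, which encodes a transmembrane protein, the pooled difference was above 0 at 71, and 18 were called without F3C9. The plot of this promoter shows F3C30 apart from the others over most of its length. Over all tested CpG sites of Tmem267, the mean was 47.8% in F3C30, 68.1% in F3C9 and 66.1 to 71.8% in the decitabine lineage. In the P-generation the mean level of the 7 CpG sites was 27.1% in C14, 21.2% in C8, 12.9% in D10, 28.98% in D11 and 22.0% in D13, below all F3 animals of the decitabine lineage.

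**Figure D5:**
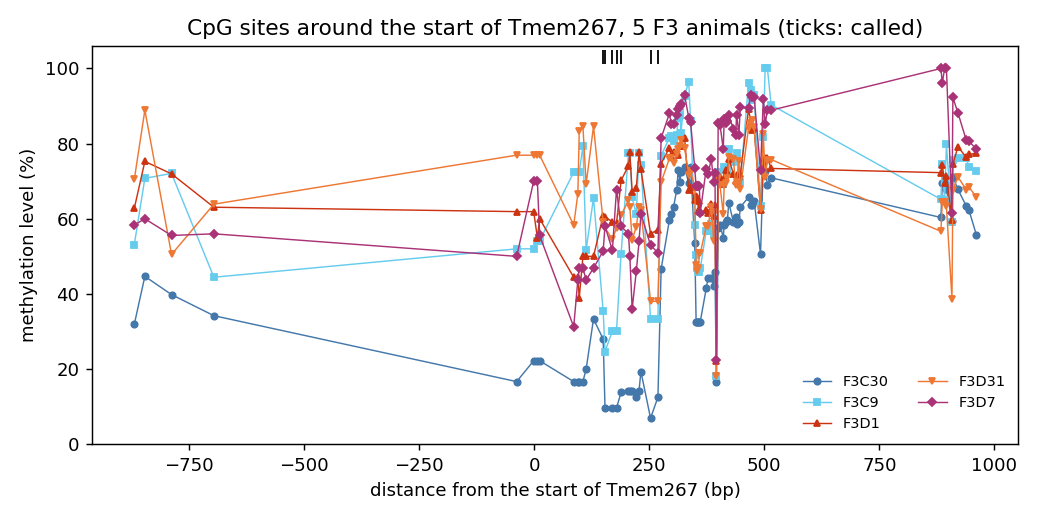
Methylation level (%) of tested CpG sites by distance from the start of Tmem267 (bp) in the 5 F3 animals, with ticks at the top for the 7 called CpG sites. At the called CpG sites F3C30 is at 6.94 to 28%, F3C9 at 24.7 to 50.7% and the decitabine lineage at 38.0 to 70.2%.

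In Neurl1a, Fgfr2, Notch2, Adamtsl4, Fnbp1 and Kif19a, called CpG sites were higher in the decitabine lineage with the exception of 1 CpG site in Adamtsl4, a protein of the extracellular matrix. Neurl1a, an E3 ubiquitin ligase, had 7, all in introns, with mean levels of 28.6% in F3C30 and 22.1% in F3C9 against 60.7%, 55.2% and 50.2%. Fgfr2, a fibroblast growth factor receptor, had 6 in introns, at 70.4% and 49.8% against 89.1%, 94.9% and 94.0%. Its annotated locus runs from chr7:130162451 to chr7:133123350, over other genes such as Fam53b. The 6 were spread from chr7:130805122 to chr7:132809246. They were 0.291% of its 2064 tested CpG sites, close to the share of 0.231% over all CpG sites. In Notch2, a receptor of the Notch pathway, 6 of 111 tested CpG sites were called, between chr3:98024520 and chr3:98024563. F3C9 was the farthest animal at these 6, with a mean of 23.6%, while F3C30 at 61.8% lay above F3D31 at 59.6%. Fnbp1 had 5 of 160, between chr2:31096390 and chr2:31096416. There F3C9 was also the farthest, at 39.6%, and F3C30 at 81.4% lay above F3D31 at 74.2%. Kif19a, a kinesin of cilia, had 5 of 83 in exons, between chr11:114781251 and chr11:114781285. F3C9 was at 41.8% and the other animals at 78.1 to 90.5%. The called CpG sites of Notch2, Fnbp1 and Kif19a can each lie in the same reads and are not separate observations. None of the called CpG sites of Neurl1a, Notch2, Adamtsl4, Fnbp1 or Kif19a was called without F3C9, which also leaves fewer reads to the test. The mean difference at these CpG sites hardly moved without F3C9 in Neurl1a, from 29.98 to 26.7 percentage points. In Adamtsl4 it was 14.2 percentage points with all animals and 13.9 without F3C9. There 4 CpG sites were higher and 1 lower, so opposite differences partly cancel and the mean cannot show how single CpG sites changed. The mean difference fell from 27.4 to 8.29 percentage points in Notch2, from 24.2 to 3.27 in Fnbp1 and from 24.7 to 6.56 in Kif19a.

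Promoters differed little. Of 12382 protein-coding promoters with at least 5 tested CpG sites, 11506 (92.9%) were under 10% methylated in every F3 animal, 80 held a called CpG site and 41 were at least 10 percentage points apart. The median size of the difference was 0.248 percentage points. The lineages did not overlap at 2194 promoters (17.7%), 1305 higher and 889 lower in the decitabine lineage. The promoters named here are the largest differences among those 2194. Separation also arises without a lineage effect, because the animals allow only 10 splits. Were the animals exchangeable and their levels not tied, either direction would have a chance of 0.1. The share of 17.7% is therefore no sign of a lineage difference.

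The largest increase was that of Ect2l, at 58.8% in F3C30 and 37.9% in F3C9 and at 60.3%, 60.5% and 73.0% in F3D1, F3D31 and F3D7. It was 16.3 percentage points (exact permutation test, two-sided, p = 0.1, the smallest p that 2 against 3 animals allow), and 5.86 percentage points without F3C9. For S1pr4, a sphingosine-1-phosphate receptor of lymphocytes, 60.6% and 56.9% stood against 67.8%, 84.8% and 71.1%. The promoter of Krt4, an epithelial keratin, was at 20.2% and 16.9% against 37.7%, 30.7% and 26.4%. Arhgef10l, a guanine nucleotide exchange factor, and Ccdc113, a protein of cilia, completed the increases with 15.6 and 12.8 percentage points, which were 5.34 and 7.43 percentage points without F3C9.

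The largest decrease was found for Il34, a cytokine that binds the CSF-1 receptor, with 63.3% in F3C30 and 50.9% in F3C9 and 35.7%, 47.8% and 38.0% in F3D1, F3D31 and F3D7. Without F3C9 it grew from -16.6 to -22.8 percentage points. Tmc4, a transmembrane channel-like protein, was at 81.1% and 76.8% against 67.1%, 56.1% and 68.9%. In the fibroblast growth factor receptor gene Fgfr1, F3D31 at 42.0% lay just under F3C30 at 43.4% and F3C9 at 43.8%, and F3D1 was at 23.1%. The decreases of Gm10392 and of Sh3tc2, a gene of Schwann cell myelination, were -11.4 and -11.2 percentage points and became -2.73 and -4.10 percentage points without F3C9. All 10 promoters had a limma adjusted p of 1.00.

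The promoters with the smallest limma p-values, named after their values were seen, had levels near 0. Lrif1, a ligand-dependent nuclear receptor interacting factor, was at 3.70% in F3C30 and 4.23% in F3C9 and at 0.5%, 0.591% and 0.583% in the decitabine lineage (adjusted p = 0.141, limma). Nfu1, an iron-sulphur cluster scaffold, was at 4.40% and 3.32% against 0.625%, 0.266% and 0.387%, with the same adjusted p of 0.141. Rgs2, a regulator of G protein signalling, was at 0% in both vehicle-control lineage animals, where 693 and 717 reads allow up to 0.433% and 0.418%, and at 0.539 to 1.85% in the decitabine lineage. Without F3C9 or F3C30 a single vehicle-control lineage animal remains, the spread comes from the 3 decitabine lineage animals alone, and that animal is assumed to vary like them. Without F3C9, limma called 3 promoters, those of Zscan21, Hus1 and Rogdi, which were at 0% in F3C30 and at 0.818 to 1.46% in the decitabine lineage, and 117 without F3C30. It called 3 CpG sites without F3C9, all in the noncoding gene Gm26917 on chromosome 17. They were at 74.1 to 88.9% in F3C30, while F3C9 at 3.57 to 10.9% lay with the decitabine lineage at 0 to 30%. A region in a coding exon of Dhx34, an RNA helicase, was also singled out after its values were seen, at 3.97% in F3C30 and 3.57% in F3C9 and at 33.3%, 25% and 30% in F3D1, F3D31 and F3D7 (limma adjusted p = 0.921).

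None of the gene lists held a called CpG site in a measured promoter, where 80 of all 12382 promoters held one. In the DNA methylation machinery, 12 of 20 genes were measured, with a median difference of 0.236 percentage points against 0.052 percentage points for all promoters. Of 13 measured genes of the piRNA pathway, which silences transposons in the male germ line, the median difference was -0.855 percentage points, and of 6 genes of spermatid chromatin and sperm structure 0.284 percentage points. The 36 measured developmental transcription factors had a median difference of -0.025 percentage points. Of these promoters, 34 were under 10% in every F3 animal, and those of Sox10, at 87.8 to 91.7%, and Gata4, at 53.4 to 65.96%, were not. The lineages did not overlap at 7 of the 36, where they did not overlap at 17.7% of all promoters. The germ line genes and the maternally methylated imprinted promoters had -1.73 and 0.289 percentage points. Of the 8 genes chosen for pyrosequencing, 4 had a measured promoter. Among these, Pou5f1, a pluripotency factor, was at 29.4% in F3C30, 52.1% in F3C9, 36.5% in F3D1, 29.3% in F3D31 and 25.4% in F3D7. No list member had a limma adjusted p under 0.05. Of the 94 distinct members measured, 3 (3.19%) had an unadjusted p under 0.05, beside 4.13% of all promoters, so that the lists held no more of them. These were the imprinted promoter of Nap1l5 and those of Tdg, a DNA glycosylase, and Mbd1, a methyl-CpG binding protein. Nap1l5 was at 3.89% in F3C30, 5.03% in F3C9, 15.5% in F3D1, 13.6% in F3D31 and 7.79% in F3D7, with the decitabine lineage above both vehicle-control lineage animals (limma adjusted p = 0.956).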

How the data were processed

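Spermatozoal DNA was cut with MspI, bisulfite converted and sequenced (reduced representation bisulfite sequencing). Per the submitters' processing notes, the authors used CASAVA 1.8.2, Trim Galore 0.3.3, cutadapt 1.1 and Bismark 0.10.1 with mm10, and deposited counts of methylated and unmethylated reads per CpG cytosine and strand, without normalization. PCR duplicates cannot be recognised in such data, so reads need not be independent molecules.

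Both strands were summed per CpG site, positions were checked against GRCm38 (0 entries were not at a CpG) and annotated with GENCODE vM21 basic. Of the CpG sites, autosomal ones with at least 10 reads in all 5 F3 animals were tested with a logistic model on pooled reads, the study's kind of test. With 1 added to either count, the log2 of methylated over unmethylated reads was tested with limma 3.58.1 (R 4.3.3), and single values per animal with an exact permutation test (scipy 1.17.1). P-values were adjusted after Benjamini-Hochberg over all features. Scripts were tested on simulated data. Nothing says how the animals relate beyond their founders.

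The members, gene lists and tests were chosen with earlier results of these data known. Named were the 5 CpG sites (20 reads, lineages separated), 6 regions and 5 promoters with the largest differences in each direction, the 10 genes with most called CpG sites (1 of them is not reported here), and list members with a called CpG site in the promoter. Alternatives were animals left out, thinned reads, other thresholds, filters and tests.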

Additional observations from a re-analysis of the deposited data

Results flagged for a closer look

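The 10 named CpG sites, 12 regions and 10 promoters were compared with the P-generation where it had enough reads. All had been chosen for lineages that did not overlap in the F3-generation. Among them, a CpG site in a coding exon of Wnt9b and the promoter of Tmc4 differed in opposite directions in the F3- and P-generation, with no overlap between the groups in either. No share over all features was computed to set beside these. At the CpG site of Wnt9b the mean difference was -36.4 percentage points in the F3-generation and 19.2 percentage points in the P-generation, where C14 was at 28.2%, C8 at 0% and D10, D11 and D13 at 29.03%, 36.1% and 34.8%. Without C8, whose strands disagreed most, the P-generation difference was 5.10 percentage points, and without F3C9 the F3 difference was -23.1 percentage points. The difference between the generations was not tested for this CpG site. The promoter of Tmc4 differed by -14.9 percentage points in the F3-generation and by 16.3 percentage points in the P-generation, where C14 and C8 were at 60.3% and 39.3% and the decitabine treated animals at 64.0 to 67.5%. Without C8 the difference was 5.85 percentage points. The adjusted p of the interaction of generation and lineage for Tmc4 was 0.826 (limma over all promoters).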

How the results depend on the processing

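The count of 2388 called CpG sites (1626 higher, 762 lower) ranged from 696 to 13530 when an animal was left out (533 to 7877 higher, 163 to 5653 lower), the extremes being the omission of F3C9 and of F3C30. It was 1387 (925 and 462) with libraries thinned to the shallowest, 1399 (933 and 466) at a minimum of 20 reads, 9827 (5992 and 3835) at a difference of 10 percentage points and 151 (119 and 32) at 40 percentage points. It was 0 (0 and 0) with 10 reads per CpG site, with the F test and, as an alternative added after the data were seen, with each animal's reads divided by its strand disagreement. With 10 reads per CpG site the test has little power at differences of the size called. The same limit holds for the F test, with its 5 animals, and for the divided reads. Division left between 12.9% of the reads in F3C9 and 31.3% in F3D7. These counts of 0 therefore cannot tell whether the called CpG sites differ between the lineages. At q under 0.05, 1172 CpG sites were lower. A minimum of 5 reads, filtering per strand, a coverage maximum, mean percentages, separated lineages and chromosomes X and Y kept the counts within 1.5 times. Omissions gave limma 0 to 618 CpG sites, 0 regions and 0 to 117 promoters, the most without F3C30.

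Dividing all methylated by all reads reversed the mean difference over all CpG sites (-0.541 percentage points), in promoters (-0.288), exons (-0.669), introns (-0.223) and intergenic sequence (-0.0846). Omissions gave 0.103 to 0.318 percentage points over all CpG sites, -0.039 to 0.120 in promoters, -0.389 to 0.627 in exons, 0.227 to 0.882 in introns and -0.165 to 0.709 in intergenic sequence. The values below 0 were -0.0235 (without F3C30) and -0.0391 (without F3D7) in promoters, -0.389 (without F3C30) and -0.0818 (without F3D1) in exons, and -0.165 (without F3C30) and -0.0182 (without F3D1) in intergenic sequence. The cause was not tested. The directions of the 10 named CpG sites, 12 regions and 10 promoters did not change under their alternatives, and 9 of the 10 CpG sites were not called without F3C9, of which those of Kcnmb2 and R3hcc1l still differed by 42.0 and 35.1 percentage points.

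The lowest coverage of the 5 animals had a median of 22 reads at the called CpG sites, and 2 vehicle-control lineage animals limit every test over animals. The lineages share no animal numbers, so their animals could not be paired with each other. The link between founder and descendant was not modelled.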
